A study of Mus musculus with 30 samples.

Results

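Scgb3a1 encodes a small secreted protein of the secretoglobin family. It was taken up here by its symbol, as 1 of the 48820 genes in the count table, of which 32872 had any count. It was chosen by its counts in these same libraries, which were higher after lipopolysaccharide (LPS) than after saline, so its LPS and saline values below are a description and carry no test. Frontal cortex and hippocampus of male wild type C57BL/6J mice, 8 to 12 weeks old and housed singly, were sequenced as polyadenylated RNA from whole tissue. The study modelled Gulf War Illness, a chronic multi-symptom illness of veterans, by exposing mice to a stress hormone and a nerve agent surrogate before an immune challenge.

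The groups were LPS at 6, 12 and 24 h, with 4 mice each, and saline at 6 h, with 3 libraries per tissue. LPS, a bacterial cell wall component, was given under the skin at 0.5 mg/kg. All groups, saline included, had first drunk water with 200 mg/L corticosterone and 0.6% ethanol over 7 days. All had then received 1 injection of diisopropyl fluorophosphate, an irreversible cholinesterase inhibitor, at 4 mg/kg on day 8, and further weeks of corticosterone every other week up to 5 weeks. No group without corticosterone and diisopropyl fluorophosphate was analysed here, and saline was sampled at 6 h only, so time after injection and LPS cannot be told apart at 12 h and 24 h. The submitters excluded 1 hippocampal saline library for poor quality. The replicate is the mouse, named by its code (A240, for example). Each LPS mouse gave both tissues.

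Secretoglobins are small secreted proteins made mainly by epithelia of airways and glands. Scgb3a1 is best known as a product of airway secretory cells, and its human counterpart as a gene silenced by promoter methylation in breast and other carcinomas. LPS is sensed by Toll-like receptor 4, which acts through NF-kB. Cytokines released after it act on brain endothelium, where they switch on leukocyte adhesion molecules and secreted innate proteins, in part through STAT3.

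In GRCm38 the gene (ENSMUSG00000064057.12) lies on the plus strand of chromosome 11, at chr11:49663610-49665118. Its annotation holds 2 transcripts with 4 distinct exons and 598 exonic bases in all, and no other gene overlaps it on either strand. One transcript has 3 exons and a coding length of 312 bases, and the other has an additional exon and a coding length of 282 bases. The table does not separate them. The 250 bases before the RefSeq transcript start are shown because the gene is at or near 0 in saline and raised after LPS. That makes its start region the stretch a reader would inspect first. They are from RefSeq (GRCm38.p6, plus strand, chr11:49663345-49663594), with the only STAT-type match in capitals.
Scgb3a1 promoter: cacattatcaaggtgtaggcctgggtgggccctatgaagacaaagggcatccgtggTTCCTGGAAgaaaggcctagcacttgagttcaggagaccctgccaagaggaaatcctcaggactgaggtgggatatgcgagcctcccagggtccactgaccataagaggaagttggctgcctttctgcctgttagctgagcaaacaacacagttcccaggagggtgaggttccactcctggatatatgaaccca

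The window has a GC content of 53.6%, close to the median of 52.4% over all promoters, and holds 2 CpG dinucleotides against a median of 6. Its match to the STAT pattern TTCNNNGAA, at chr11:49663401-49663409, starts 194 bases before the transcript start. That pattern occurs in 7.02% of the 32851 mouse promoters searched over windows of the same length on both strands. No match was found to the NF-kB pattern (present in 7.25% of promoters), to the interferon-stimulated response element (2.98%) or to the AP-1 pattern TGACTCA (4.46%). The C/EBP pattern TTNCGNAA (2.04%), the glucocorticoid response element (0.387%) and the TATA box TATAAA (12.4%) had none either. A match is a description of letters and not of binding.

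The deposited values are whole read counts per gene. Libraries held between 16781630 and 32943588 counts, and the 3 saline libraries of cortex span that whole range. Levels are given as CPM, the counts per 1000000 of a library total scaled by the trimmed mean of M values (TMM). The tissue labels matched their markers: a list of hippocampal neuron genes summed to 429 to 551 CPM in hippocampal libraries and 25.5 to 33.8 CPM in cortical ones, and a cortical neuron list to 325 to 522 CPM in cortex and 110 to 145 CPM in hippocampus. Choroid plexus carry-over varied strongly: its marker list summed to 138 to 3323 CPM in hippocampal libraries and to 1632 CPM in the highest cortical one. Neither the RNA per cell nor the number of cells of a type can be read from whole tissue, so fewer cells and less RNA per cell cannot be told apart.

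Scgb3a1 was all but undetected after saline and present in every LPS library, with counts that were low at 6 h and several times higher at 12 h and 24 h. In hippocampus at 6 h after LPS the 4 mice had 25, 31, 22 and 23 counts, or 0.968, 1.32, 1.14 and 1.25 CPM, against 0, 1 and 2 counts, or 0, 0.0349 and 0.0781 CPM, in the 3 saline libraries. Every LPS library was above every saline library. The count of 0 in saline mouse A222 allows a level of up to 0.105 CPM, which is still under the lowest LPS value.

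At 12 h after LPS the hippocampal counts were 65, 84, 111 and 87, or 3.43, 4.23, 4.44 and 3.58 CPM. At 24 h they were 74, 64, 98 and 63, or 3.66, 3.04, 4.09 and 2.91 CPM. The 12 h and 24 h ranges overlapped each other and both stood wholly above the 6 h range. Group means were 0.0377 ± 0.0392 CPM after saline (SD, n = 3) and 1.17 ± 0.154 CPM, 3.92 ± 0.495 CPM and 3.42 ± 0.550 CPM at 6, 12 and 24 h after LPS (SD, n = 4 each).

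In cortex at 6 h after LPS the counts were 14, 12, 20 and 21, or 0.741, 0.637, 0.927 and 0.978 CPM, against 1, 1 and 0 counts, or 0.0498, 0.0597 and 0 CPM, after saline. The saline library at 0 (A226) is the deepest of the cortical set, and its 0 allows up to 0.0937 CPM. Again no LPS library reached down to the saline range.

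At 12 h the cortical counts were 98, 64, 99 and 95, or 3.98, 3.04, 4.91 and 3.86 CPM. At 24 h they were 83, 81, 104 and 77, or 3.94, 3.97, 4.67 and 3.55 CPM. As in hippocampus, the 12 h and 24 h ranges overlapped and lay above the 6 h range. The cortical means were 0.0365 ± 0.0320 CPM after saline (SD, n = 3) and 0.821 ± 0.159 CPM, 3.95 ± 0.766 CPM and 4.03 ± 0.466 CPM at 6, 12 and 24 h after LPS (SD, n = 4 each).

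**Figure D1:**
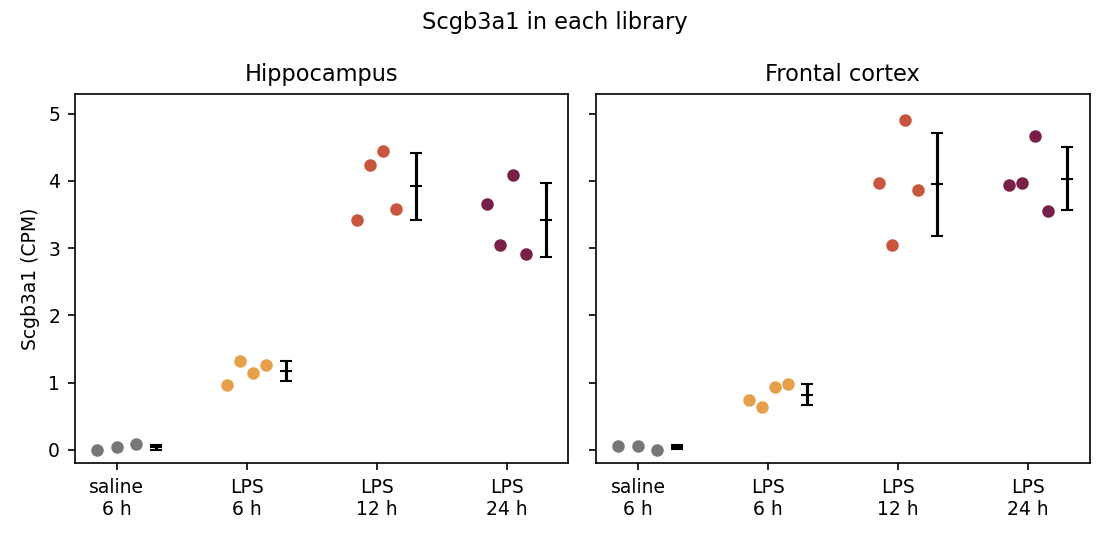
Scgb3a1 level (CPM, linear axis) in each library, by tissue and group. Points are libraries and the bars beside them the mean and SD. Saline libraries sit at or near 0, LPS 6 h libraries between 0.637 and 1.32 CPM, and the 12 h and 24 h libraries between 2.91 and 4.91 CPM.

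The spread between mice was close to what counting alone would give in most groups. The variance of the counts divided by that expected from Poisson counting was 0.494, 1.38 and 1.98 at 6, 12 and 24 h in hippocampus and 0.612, 3.07 and 1.19 in cortex. The widest spread was that of cortex at 12 h, where mouse A259 had 3.04 CPM, mouse A260 4.91 CPM and the other 2 lay between them. Per kilobase of exon, mean levels at 12 h were 6.55 CPM in hippocampus and 6.60 CPM in cortex. On the same per-kilobase scale Lcn2, a siderophore-binding innate protein and a common marker of the LPS response, had 2.84 CPM in hippocampus and 3.20 CPM in cortex at 12 h. The order was the other way at 6 h, when Lcn2 had 4.52 and 7.04 CPM per kilobase in hippocampus and cortex and Scgb3a1 had 1.96 and 1.37. The length used is that of all annotated exons of a gene together, which can exceed that of its main transcript. Without division by length, Lcn2 was the higher gene at 12 h too. It had 7.45 CPM in hippocampus and 8.38 CPM in cortex, against 3.92 and 3.95 CPM for Scgb3a1. The order at 12 h therefore depends on the length used.

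Pooling the counts of a group gave Scgb3a1 a ratio of LPS to saline in hippocampus of 32.1 at 6 h (exact 95% interval 10.7 to 158), 109 at 12 h (36.9 to 529) and 94.9 at 24 h (32.2 to 463). In cortex the ratios were 28.5 (7.60 to 240), 135 (37.2 to 1122) and 139 (38.2 to 1152). These intervals cover counting error only, and they are wide because the saline groups held 3 counts in hippocampus and 2 in cortex. The size of the ratio therefore hangs on single saline libraries: leaving out hippocampal saline A222 gave 21.0, 71.2 and 62.2 at 6, 12 and 24 h, and leaving out A226 gave 66.5, 225 and 197. In cortex, leaving out A226 gave 15.3, 72.4 and 74.3, and leaving out A224 gave 43.2, 205 and 210.

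With each saline total raised to at least 3 counts, the ratio of Scgb3a1 ranked 9 of 17116 genes at 6 h and 1 of 17116 at 12 h and 24 h in hippocampus, and 13, 1 and 1 of 16944 in cortex. Since the gene was picked for this contrast, the rank describes the choice. Between LPS times no near-zero group enters, and the ratios are narrower. The 12 h level over the 6 h level was 3.39 (2.71 to 4.27) in hippocampus and 4.74 (3.65 to 6.26) in cortex. The 24 h level over the 12 h level was 0.874 (0.746 to 1.02) and 1.03 (0.882 to 1.19), both intervals including 1.

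The 8 group means, in rising order, were cortex saline, hippocampus saline, cortex 6 h, hippocampus 6 h, hippocampus 24 h, hippocampus 12 h, cortex 12 h and cortex 24 h. Library ranges of neighbours in that order were apart in only 2 places, between hippocampus saline and cortex 6 h and between hippocampus 6 h and hippocampus 24 h. The libraries thus form 3 levels that do not overlap: saline, LPS at 6 h, and LPS at 12 h or 24 h.

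Compared within each mouse, the order of cortex and hippocampus differed between the mice taken at 6 h and those taken at 24 h. At 6 h the cortical level was lower than the hippocampal one in 4 of 4 mice, with ratios of cortex to hippocampus from 0.483 to 0.810 and a pooled ratio of 0.713 (exact 95% interval 0.516 to 0.981). At 12 h it was higher in 3 of 4 mice, with a pooled ratio of 0.999 (0.860 to 1.16). At 24 h it was higher in 4 of 4 mice, with ratios from 1.08 to 1.30 and a pooled ratio of 1.17 (1.002 to 1.37). The pooled intervals cover counting error only and do not use the pairing by mouse. At 24 h the hippocampal counts varied 1.98 times as much as counting alone gives, so that interval is too narrow. Only 1 of the 12 single-mouse intervals leaves out 1 (A241 at 6 h, with 12 counts in cortex and 31 in hippocampus), and the change between times was not tested.

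Summed vessel marker lists were also compared between the tissues. Members of the endothelial lists were themselves called higher or lower after LPS, so these sums do not measure vessel content alone. The summed brain endothelium list had ratios of cortex to hippocampus of 1.04 to 1.23 at 6 h and 0.999 to 1.36 at 24 h, and the mural cell list 0.861 to 1.04 and 1.04 to 1.31. The endothelial activation list had 1.16 to 1.53 at 6 h and 0.967 to 1.33 at 24 h. At 6 h the endothelial lists were thus higher in cortex while Scgb3a1 was lower there. The mural cell list had a mean ratio of 0.974 at 6 h and 1.16 at 24 h, a shift in the same direction as that of Scgb3a1. The part of tissue composition in the Scgb3a1 ratio was not tested.

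**Figure D2:**
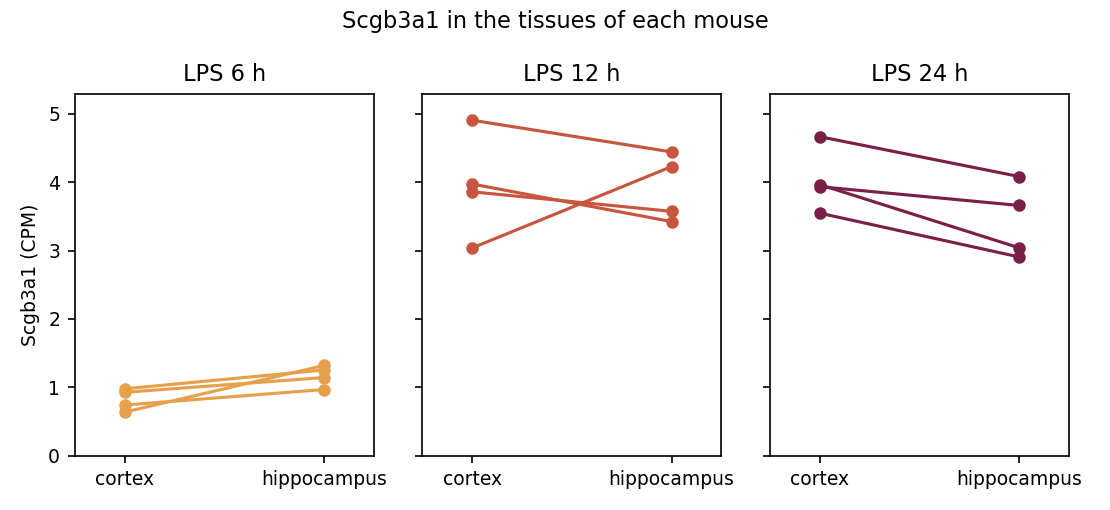
Scgb3a1 level (CPM) in cortex and hippocampus of each LPS mouse, 4 mice per time, with a line joining the tissues of a mouse. All 4 lines go up toward hippocampus at 6 h, 3 of 4 go down toward it at 12 h and all 4 at 24 h.

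A mouse with a high hippocampal level did not detectably have a high cortical one. In most groups the spread between mice was close to that of counting alone. The correlations in this paragraph therefore had little to detect, and a low value does not show that a relation is absent. Deviations of log2(CPM + 0.05) from the mean of the tissue and time correlated over the 12 LPS mice with Pearson r = 0.248 (exact permutation within times, two-sided p = 0.458, 13824 pairings) and Spearman rho = 0.266 (exact permutation p = 0.433). Without the 2 mice farthest from the median hippocampal deviation r was 0.053. No relation between these deviations and sample makeup passed adjustment. Of 8 relations, with Ttr (a choroid plexus product), the brain endothelium list, the endothelial activation list and library size in each tissue, the strongest was with Ttr in hippocampus (r = -0.58, rho = -0.57, n = 12, exact permutation p = 0.0548 and 0.0722, and 0.438 and 0.578 after Benjamini-Hochberg adjustment over the 8). Leaving out the 2 libraries farthest from the median of the measure moved several values and changed which relation was strongest. Hippocampal Ttr then had r = -0.43, cortical library size 0.627 instead of 0.274, the cortical brain endothelium list 0.535 instead of 0.328, and the hippocampal one -0.374 instead of 0.077. Cortical Ttr moved to -0.46 against -0.30, and the hippocampal endothelial activation list to 0.153 against 0.264. No p was computed for these subsets.

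Of 69 secretoglobin genes listed in the table, 3 had any count. Scgb3a1 held 1520 counts over the 30 libraries, Scgb1c1 26 and Scgb1b30 1. Scgb1c1 group means lay between 0.0117 and 0.0835 CPM, and its highest mean was in saline cortex. The airway secretory cell products Scgb1a1 and Scgb3a2 and the surfactant protein gene Sftpd were at 0 in every group.

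The other airway epithelium markers were low. Their list of 16 summed to between 2.87 and 8.63 CPM per library, with hippocampal ranges of 3.07 to 4.68, 4.48 to 8.63 and 2.87 to 4.00 CPM at 6, 12 and 24 h after LPS, against 3.45 to 7.43 CPM after saline. The cortical ranges were 3.68 to 5.42, 3.37 to 3.89 and 3.01 to 4.47 CPM after LPS, against 4.24 to 6.09 CPM after saline. Ranges after LPS and saline overlapped except in cortex at 12 h, where the LPS range was the lower one. Of its members 5 could be tested in hippocampus and 4 in cortex, by edgeR's quasi-likelihood test with Benjamini-Hochberg adjustment over all genes at a threshold of 0.05. The epithelial cadherin gene Cdh1 was higher at 12 h in hippocampus (log2 fold change 1.52, SE 0.40, adjusted p = 0.0124), and no other member was called in any of the 6 comparisons.

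The same test gives the background for every list. In hippocampus it called 3.01%, 6.29% and 6.95% of 17116 genes higher at 6, 12 and 24 h after LPS and 2.13%, 6.05% and 6.39% lower. In cortex it called 2.32%, 4.17% and 3.78% of 16944 genes higher and 1.2%, 3.02% and 2.39% lower. The median log2 fold change of all genes stayed between -0.00 and 0.01 in the 6 comparisons, which share their saline libraries within a tissue. Fitting both tissues together in edgeR moved cortical calls at 6 h to 728 higher and 537 lower. A limma-voom fit over both tissues called 734 and 587 with the mouse as a replicate block and 715 and 559 without it.

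Secreted innate and acute phase proteins were called higher in a larger share than that background. This list and the lists below were chosen with earlier results of these data known. Their shares against the background are therefore a description and not a test of the lists. In hippocampus 7, 8 and 7 of 13 tested members were higher at 6, 12 and 24 h, with 1 lower at 24 h, and median log2 fold changes of 0.72, 0.75 and 1.09. In cortex 7, 8 and 7 of 14 were higher and none lower, with medians of 2.09, 1.41 and 1.42. Lcn2 had log2 fold changes of 5.65 (SE 0.27, adjusted p = 1.49e-11) in hippocampus and 5.98 (SE 0.55, adjusted p = 4.03e-05) in cortex at 6 h. Saa3, an acute phase protein, was at 0 counts in all 6 saline libraries and averaged 0.704 ± 0.162 CPM in hippocampus and 2.06 ± 0.501 CPM in cortex at 6 h (SD, n = 4 each). Timp1, a metalloproteinase inhibitor, was called in all 6 comparisons, and Il1rn, the interleukin-1 receptor antagonist, in 3.

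Some of these counts rest on single libraries. The hippocampal count at 6 h was 4 without saline A224 or A226 or LPS A240 or A241, and the one at 24 h was 3 without saline A224. In cortex the count was 5 at 12 h and 4 at 24 h without saline A226.

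Genes of endothelial activation rose in both tissues, 7, 9 and 9 of 11 tested in hippocampus and 8, 7 and 7 of 12 in cortex, with none called lower. The medians were 0.79, 0.96 and 1.27 in hippocampus and 1.39, 1.20 and 1.22 in cortex on the log2 scale. Sele and Selp, the selectins that catch leukocytes on the vessel wall, had log2 fold changes of 7.50 (SE 0.56, adjusted p = 8.04e-08) and 7.29 (SE 0.47, adjusted p = 6.51e-10) in hippocampus at 6 h. Their saline groups held only 1 or 2 counts, so the folds are imprecise. Csf3, a neutrophil growth factor tested in cortex only, was higher there at 6 h (4.89, SE 0.99, adjusted p = 0.00669), with 1 count after saline. Ch25h, the cholesterol 25-hydroxylase gene, rose by 3.66 (SE 0.35) in hippocampus and 4.33 (SE 0.53) in cortex at 6 h, with adjusted p = 2.72e-07 and 0.000175. The cortical count at 6 h was 5 without saline A226 or without LPS A241.

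Regulators of the NF-kB and STAT3 response were called higher in hippocampus for 6, 5 and 5 of 15 tested members and in cortex for 9, 6 and 7 of 15. In hippocampus 1, 1 and 2 were lower, and in cortex none. The median log2 fold changes of the list were 0.30, 0.17 and 0.07 in hippocampus and 0.59, 0.43 and 0.44 in cortex. Nfkbia was called lower in hippocampus at 6, 12 and 24 h, with log2 fold changes of -0.42, -0.56 and -0.68 (adjusted p = 0.0179, 0.000846 and 0.000123). In cortex its values of -0.15, -0.38 and -0.48 were not called. Bcl3, a nuclear NF-kB cofactor, had the largest log2 fold change in the list, 4.35 (SE 0.26, adjusted p = 1.65e-10) in hippocampus and 4.21 (SE 0.40, adjusted p = 6.80e-06) in cortex at 6 h. Socs3, a STAT3-induced feedback inhibitor, Osmr, the oncostatin M receptor, and Nfkb2 were higher in all 6 comparisons. The cortical count at 24 h was 4 without saline A224 or A226 or LPS A276 or A278.

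The identity genes of brain endothelium did not move as a block. In hippocampus 2, 2 and 3 of 15 were higher and 3, 6 and 1 lower, and in cortex 1, 4 and 2 were higher and 1, 1 and 0 lower. Esam, an endothelial adhesion molecule, was higher at 12 h in hippocampus (0.67, SE 0.11, adjusted p = 0.000122) and cortex (0.90, SE 0.12, adjusted p = 8.68e-05) on the log2 scale. Abcb1a, the drug efflux pump of the blood-brain barrier, fell by 0.95 (SE 0.15, adjusted p = 0.00038) in hippocampus and by 0.76 (SE 0.19, adjusted p = 0.024) in cortex at 12 h. Slco1a4, an organic anion transporter of the barrier, fell by 1.504 (SE 0.28, adjusted p = 0.00381) in hippocampus at 12 h and was not called elsewhere. These counts were small and moved both ways. Higher calls at 12 h in cortex were 2 without saline A224 or A226 or LPS A260. In hippocampus at 12 h they were 1 without saline A222 or A224 or LPS A259 or A260, and 4 with no filter on low counts. At 24 h they were 1 without saline A224 and 5 with no filter in hippocampus, and 4 or 5 under 4 alternatives in cortex.

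Markers of blood leukocytes were also higher after LPS. Of 8 tested neutrophil and monocyte genes, 5, 5 and 5 were higher in hippocampus and 7, 6 and 4 in cortex, with none lower. The whole list of 13 summed to 15.4 to 17.2, 10.3 to 16.3 and 10.4 to 16.2 CPM in hippocampus at 6, 12 and 24 h, against 6.17 to 6.87 CPM after saline. In cortex it summed to 25.1 to 32.1, 14.4 to 22.9 and 14.7 to 18.2 CPM, against 6.51 to 8.62 CPM after saline. This sum was highest at 6 h, when Scgb3a1 was at its lowest LPS level, and its part in the Scgb3a1 result was not tested. S100a9 and S100a8, which together form the neutrophil protein calprotectin, had log2 fold changes of 6.02 (SE 0.56, adjusted p = 2.72e-06) and 5.60 (SE 0.53, adjusted p = 9.25e-07) in hippocampus at 6 h. Of the defining markers, Ly6g was at 0 after saline in both tissues and in hippocampus at 6 h, and was detected in the other LPS groups. Retnlg and Camp were at 0 in hippocampus after saline only, and Elane at 0 in hippocampus at 6 and 24 h and in cortex at 6 and 12 h.

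None of the 12 choroid plexus markers was called in any comparison by edgeR, while their summed level varied between single libraries far more than Scgb3a1 did. Their median log2 fold changes at 6, 12 and 24 h were -1.67, -0.03 and -2.65 in hippocampus and -1.10, -1.69 and -1.27 in cortex. The absence of calls therefore does not show an unchanged level. Of 10 mural cell genes at most 1 was called in any comparison. Of 10 meningeal and fibroblast genes 1 was higher in hippocampus at 6 h, 4 were higher there at 12 h, and 2 were lower in cortex at 12 h and 24 h. Ependymal genes numbered 5 tested, of which 1, the axonemal gene Ccdc153, was higher in cortex at 6 h.

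**Figure D3:**
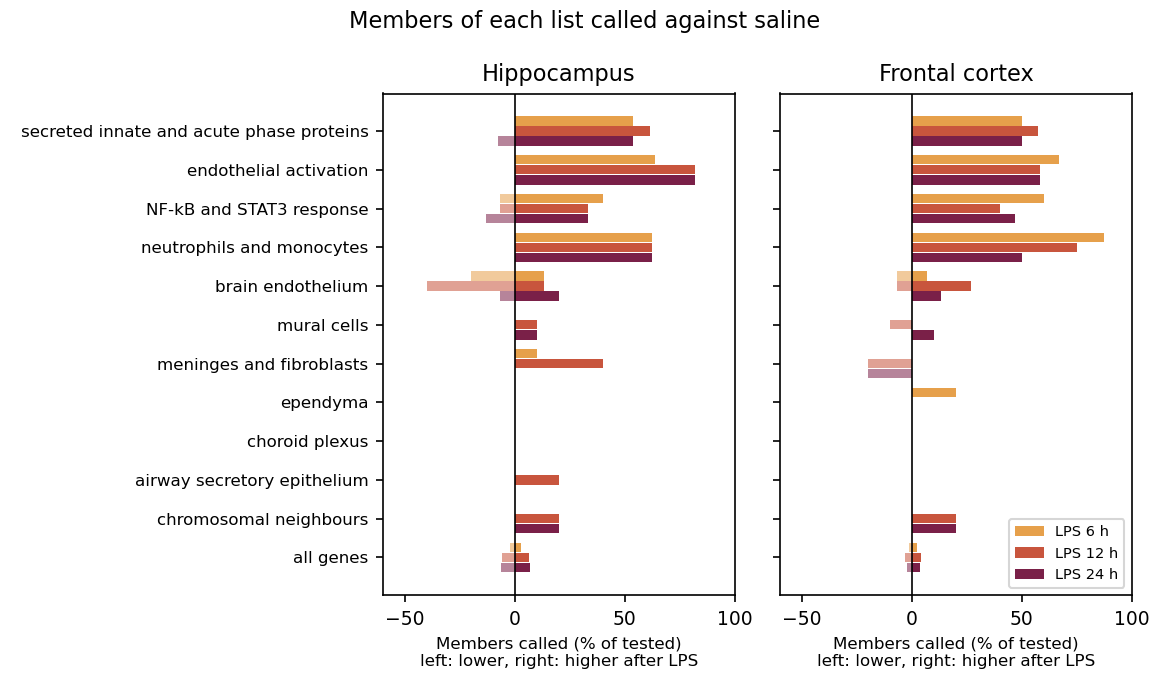
Share of tested members of each list called higher (bars to the right) or lower (paler bars to the left) after LPS against saline, by tissue and time, with all genes at the bottom. Endothelial activation, secreted innate proteins, and neutrophil and monocyte genes stand above the background of 1.2% to 6.95%, and the choroid plexus list shows no bar.

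The time course of Scgb3a1 was later than that of most strongly raised genes. Its 6 h level was 29.5% of its 12 h level in hippocampus and 21.1% in cortex, and its 24 h level was 87.4% and 103% of it. Among the 43 hippocampal genes at least 10 times above saline at 12 h, Scgb3a1 included, the median gene stood at 64.0% at 6 h and 56.7% at 24 h. Only 3 of them had a lower share at 6 h (Cxcl10, Gbp4 and Gm4951). Cxcl10 all but equalled Scgb3a1 there, at 29.5%, and Ccl12 stood just above, at 29.7%. In cortex Cxcl10 and Ccl12 stood at 31.9% and 39.4%. In cortex the median of 31 such genes was 89.6% at 6 h and 89.0% at 24 h, and none had a lower share at 6 h.

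This comparison was chosen after the values were seen. With genes at least 5 times above saline, 5 of 92 in hippocampus and 3 of 100 in cortex had a lower 6 h share, and with at least 20 times, 2 of 19 and 0 of 13. Lcn2 stood at 159% and 218% of its 12 h level at 6 h in hippocampus and cortex, Sele at 151% and 227%, and Selp at 178% and 218%. Lcn2, Sele and Selp were past their highest measured level when Scgb3a1 reached its own. Not all members of the secreted innate and endothelial activation lists were early. Timp1 stood at 42.8% and 74.7% at 6 h, Chil1 at 59.1% and 56.8%, and Angpt2 at 64.2% and 64.7%. C3 stood at 71.1% in hippocampus and 168% in cortex.

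**Figure D4:**
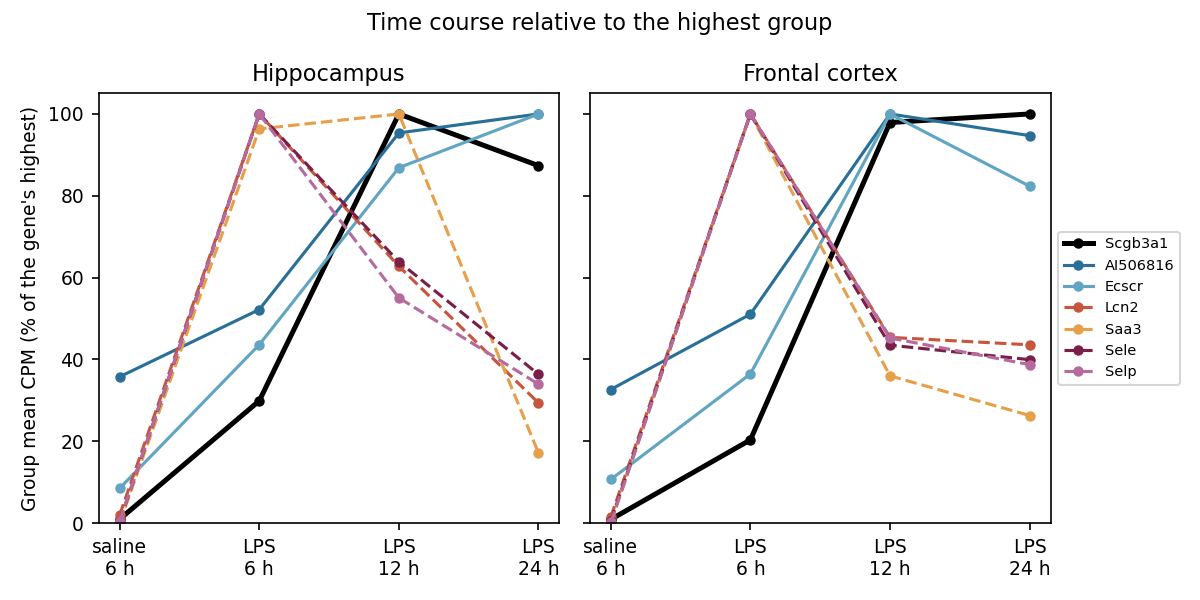
Group mean level of Scgb3a1 and 6 other genes as a percent of each gene's highest group mean in that tissue. Solid lines are Scgb3a1 and the genes closest to it by Pearson r over the 30 libraries (AI506816, Ecscr). Dashed lines are genes picked as early (Lcn2, Saa3, Sele, Selp). They are at their highest mean at 6 h in cortex and, apart from Saa3, in hippocampus. Scgb3a1 reaches its highest mean at 12 h in hippocampus and at 24 h in cortex.

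Over all 30 libraries the pattern of Scgb3a1 was compared with that of 17473 genes by Pearson r of log2(CPM + 0.5). The 10 closest were AI506816 (r = 0.964), Ecscr (0.942), Slco2b1 (0.937), Tmem173 (0.935), Pik3ap1 (0.930), Ccl12 (0.929), Cxcl10 (0.924), Cd93 (0.923), Msn (0.923) and Ptprc (0.921). The median gene had r = -0.00 and 22 genes, or 0.126%, were above 0.9. All points share the step between saline and LPS, so these r values are a description of that step as much as of the finer time course. Over the 24 LPS libraries alone only AI506816 stayed among the 10 closest, again in the first place, with r = 0.924. The others there were Tbxas1, Cx3cr1, Fcrls, Nid1, Syt15, Rasal3, Cmtm6, Tifab and Gna15, down to r = 0.848. The genes described next are those of the ranking over all 30 libraries.

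AI506816 is annotated as a processed transcript with no coding sequence, on chromosome 5. It had 5.18 ± 0.561, 9.47 ± 0.640 and 9.93 ± 1.20 CPM in hippocampus at 6, 12 and 24 h, against 3.55 ± 0.222 CPM after saline. In cortex it had 5.17 ± 0.481, 10.1 ± 1.37 and 9.59 ± 0.353 CPM, against 3.31 ± 0.0730 CPM after saline (SD, n = 4 after LPS and 3 after saline). Its 12 h and 24 h levels lay close together, as those of Scgb3a1 did, but it was well above 0 after saline.

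Ecscr and Cd93 code for membrane proteins of endothelium, and Cd93 is also found on myeloid cells. Ecscr averaged 3.56 ± 0.327 CPM in hippocampus at 12 h, against 0.349 ± 0.0919 CPM after saline. Tmem173 codes for STING, the receptor for cyclic dinucleotides, and had 6.65 ± 1.42 CPM in cortex at 12 h, against 1.80 ± 0.502 CPM after saline. Ccl12 and Cxcl10 are chemokines that attract monocytes and activated T cells. Of the 10, they had the lowest saline levels in both tissues, and they had 4.85 ± 0.889 and 4.13 ± 1.28 CPM in hippocampus at 12 h, against 0.0624 ± 0.0590 and 0.101 ± 0.115 CPM after saline.

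Slco2b1 is an organic anion transporter, Pik3ap1 an adaptor of phosphoinositide 3-kinase signalling, Msn the membrane-actin linker moesin, and Ptprc the leukocyte phosphatase CD45. Slco2b1 and Msn were abundant after saline as well, at 11.1 ± 1.22 and 18.2 ± 0.956 CPM in hippocampus, and reached 19.7 ± 1.88 and 44.5 ± 4.55 CPM at 12 h.

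On the chromosome, 15 other protein-coding genes start within 250 kb of Scgb3a1. The 10 olfactory receptor genes among them did not pass the filter on low counts, and 5 genes were tested. Flt4, the receptor for the lymphatic growth factors VEGF-C and VEGF-D, starts 54347 bases upstream on the same strand. It was higher in hippocampus by 0.63 (SE 0.15, adjusted p = 0.00487) at 12 h and 0.49 (SE 0.15, adjusted p = 0.0284) at 24 h on the log2 scale, and in cortex by 0.80 (SE 0.16, adjusted p = 0.0029) and 0.67 (SE 0.16, adjusted p = 0.0136). At 6 h its log2 fold changes of 0.40 and 0.14 in hippocampus and cortex were not called. Cnot6, Gfpt2, Mapk9 and Rasgef1c, downstream of Scgb3a1, were not called at any time in either tissue.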

How the data were processed

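Whole-tissue hippocampus and frontal cortex were sequenced as stranded, paired-end poly(A) libraries with 150 bp reads, per the labels' protocols. The deposited table holds raw read counts per Ensembl gene and library, in whole numbers and without normalization. The submitters' processing notes name Trim Galore 0.4.1, FastQC, STAR 2.6.0a, DESeq2 and the builds GRCm38 and mm10. Which program did the counting, with which strand setting and annotation, is not given in the sources used here. Without a stated strand setting, reads of antisense genes could mix in, but no annotated gene overlaps Scgb3a1. Identifiers were matched to GENCODE M21, and 98.4% got a symbol. Counts without a gene name made up at most 0.290% of a library.

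Scgb3a1, the gene lists and the tests were chosen with earlier results of these data known. Levels are CPM on TMM-scaled library sizes (edgeR 4.0.16, R 4.3.3). For other genes, LPS was compared with saline in the 15 libraries of a tissue by edgeR's quasi-likelihood test after filterByExpr, two-sided, with Benjamini-Hochberg adjustment and a threshold of 0.05. The SE of a log2 fold change is its size over the square root of F. Scgb3a1 passed the filter only through its LPS libraries and was not tested. Pooled ratios carry exact 95% intervals for counting error only, and a count of 0 allows 3 counts. The labels do not say whether mice shared litters, so p-values measure the spread between these mice.

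Named genes were Scgb3a1, measured secretoglobins, protein-coding neighbours within 250 kb, the 10 genes most like it, at most 4 members of a list taken by size of fold change, Ttr and Lcn2. Other genes that are named, such as those compared in timing, Cdh1, Ccdc153, Ly6g, Nfkbia and Sftpd, were named after their values were seen. Alternatives were DESeq2 1.42.0, other scalings, filters and pseudocounts, each library left out, and limma 3.58.1 with the mouse as a block. Mouse codes in the labels join the tissues of an animal, and 14 of 16 mice gave both. Deviations of the 2 tissues of a mouse over 12377 genes correlated with a median of 0.118 (range -0.109 to 0.355). No pair of libraries of 1 group agreed within sampling noise: the lowest chi-square per gene over the 42 pairs was 2.23.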

Additional observations from a re-analysis of the deposited data

Results flagged for a closer look

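The pooled ratio of cortex to hippocampus for Scgb3a1 was 0.713 at 6 h after LPS and 1.17 at 24 h, with all 4 mice on one side of 1 at 6 h and all 4 on the other at 24 h. The difference between the times was not tested.

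Among 72 groups of 4 libraries examined, covering Scgb3a1, the 10 genes most like it and Ttr, 12 had a library far from the other 3. The limit used flags about 1 in 20 groups of independent, normally distributed values. These CPM values come from the same libraries and need not be so distributed, so that rate does not apply to them. No Scgb3a1 level was among the 12.

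Ttr had 349 CPM in hippocampus of mouse A240 at 6 h, where the other 3 had 25.9 to 40.0 CPM. It had 2241 CPM in hippocampus of A261 at 12 h, where the others had 21.5 to 250.8 CPM. In cortex it had 412 CPM in A241 at 6 h, with the others at 26.3 to 49.3 CPM, and 316 CPM in A258 at 12 h, with the others at 7.08 to 17.5 CPM. Ccl12 had 1.77 CPM in hippocampus and 3.06 CPM in cortex of A242 at 6 h, above the other mice in both tissues, and 3.53 CPM in hippocampus of A261 at 12 h, below them. Cxcl10 had 7.36 CPM in cortex of A261 at 12 h, where the others had 3.49 to 4.08 CPM.

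Ptprc had 6.63 CPM in hippocampus of A276 at 24 h, above the others, and Pik3ap1 had 3.42 CPM in the same library, below the others. Tmem173 had 6.41 CPM in hippocampus of A260 at 12 h, above the others, and Slco2b1 had 13.8 CPM in cortex of A240 at 6 h, below the others. Their part in the likeness to Scgb3a1 was not tested.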

How the results depend on the processing

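Scgb3a1 stayed above saline in all 6 comparisons under the scalings, pseudocounts and left-out libraries tried for its ratio, and DESeq2 size factors or library totals moved no ratio beyond the spread between mice. A pseudocount shrank the ratios. With mean log2(CPM + 0.05) they were 14.9, 48.3 and 42.2 in hippocampus at 6, 12 and 24 h and 10.5, 48.2 and 49.6 in cortex. With mean log2(CPM + 0.5) they were 3.10, 8.19 and 7.26, and 2.45, 8.20 and 8.42. Without the 2 hippocampal libraries of higher Ttr (saline A222, LPS 12 h A261) they were 21.0, 73.7 and 62.2. Leaving out each library gave 21.0 to 66.5, 71.2 to 225 and 62.2 to 197 in hippocampus and 15.3 to 43.2, 72.4 to 205 and 74.3 to 210 in cortex, with both ends set by saline libraries. Depth limits the saline level: 3 counts in hippocampus and 2 in cortex.

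The mouse correlation kept its sign and stayed past no threshold in 19 alternatives (r from 0.0436 to 0.519). In cortex the relation with library size was -0.0255 without the log, against 0.274. Of the 10 genes most like Scgb3a1, 6 were kept with Spearman rho, 4 over group means and 1 over the LPS libraries.

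Counts of all genes called moved more in cortex than in hippocampus. In cortex at 6 h, higher and lower calls were 734 and 587 in limma-voom over both tissues with the mouse as replicate block and 728 and 537 with both tissues in 1 fit, and DESeq2 called 336 lower. Lower calls in cortex at 12 h were 951 and 875 in those fits, and at 24 h 668 and 643. In hippocampus at 6 h, lower calls were 240 with both tissues in 1 fit and 676 without a filter. Without the 2 libraries of higher Ttr, lower calls in hippocampus were 175, 518 and 702 at 6, 12 and 24 h. Scaling by library totals gave 1345 higher and 687 lower at 12 h and 1604 and 729 at 24 h in hippocampus, and 1158 and 315 at 12 h and 976 and 269 at 24 h in cortex. Leaving out each library gave 318 to 483 higher and 167 to 454 lower in hippocampus at 6 h, with lower calls of 664 to 1150 at 12 h and 676 to 1135 at 24 h. In cortex it gave 210 to 453 higher and 111 to 410 lower at 6 h, 449 to 648 and 303 to 570 at 12 h, and 427 to 552 and 238 to 394 at 24 h. The cause of these shifts was not tested.

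The replicate block, which is the mouse code shared by the tissues, was set against the same limma-voom fit without it in a comparison added after seeing the data. It moved no count of all genes or of the secreted, endothelial activation, NF-kB and brain endothelium lists by 1.5 times or more, with 734 higher and 587 lower against 715 and 559 in cortex at 6 h. LPS and saline mice are different animals, so a block pairs tissues and not treatments.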
